A study of Mus musculus with 6 samples.

Results

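Imprinted growth-control genes are genes of which, in most tissues, only the copy from 1 parent is active and whose products set how much a tissue grows. The set described here held H19, Igf2, Meg3, Dlk1, Peg3, Plagl1, Grb10, Mest, Ndn and Cdkn1c, named by symbol and not by their values. Of these 10 genes, 8 had an intact identifier and 6 readable values, among 19037 genes kept in all. H19 and Meg3 had no intact row and are not analysed here. RNA was sequenced from 3 old and 3 young C57/BL6 mice, 1 library per mouse, all labelled as vascular endothelial cells of the lung after acid injury. Age is labelled only as old or young, and neither sex nor the time since injury is stated. Uninjured lungs are not analysed here, so the single comparison is old against young after the same injury. The labels' protocols describe homogenized tissue and name no step that isolated cells.

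Imprinting is laid down in the germ line as DNA methylation at control regions that several neighbouring genes share. Genes active from the father's copy, such as Igf2, Dlk1, Peg3, Plagl1, Mest and Ndn, are in many cases linked to growth, and genes active from the mother's copy, such as H19, Meg3, Cdkn1c and, outside the brain, Grb10, in many cases to its restraint. Most of them are abundant in the fetus and fall after birth. FPKM values (fragments relative to the length of the gene and to the total of the library) do not tell the parental copies apart, so no value here bears on imprinting itself.

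Library depth implied by the values ran from 11381122 to 17931463 fragments. The label of endothelial cells was checked against marker genes. All 8 intact endothelial markers had lower values in every old library than in any young one, and 7 of them passed the test (Pecam1, Cdh5, Tek, Kdr, Tie1, Egfl7 and Mmrn2). Fewer passed on fewer libraries, with 0 of 8 without old mouse 3 and 2 to 4 without any 1 other library. With the mouse number as a replicate block 0 passed. Calls over all tested genes also fell, from 498 to 84 without old mouse 3 and to 126 with the block. The summed level of the 8 endothelial markers was 36.3 to 134 FPKM across old libraries, against 450 to 1184 FPKM across young ones. Fibroblast markers went the other way, with 6 of 7 past the test (Col1a1, Col1a2, Lum, Mfap4, Mfap5 and Tcf21), 5 to 6 without any 1 library, and sums of 1153 to 2092 FPKM across old libraries, against 33 to 71.3 FPKM across young ones. Mesothelial markers, with 3 of 6 tested genes past the test (Msln, Upk3b and Krt19), summed to 171 to 456 FPKM across old libraries, against 9.33 to 40.8 FPKM across young ones. Of the mesothelial genes 0 passed without old mouse 2 or without old mouse 3, 1 without young mouse 1 or young mouse 3, and Upk3b reached the filter only through old libraries. Epithelial markers, with 3 of 5 tested genes past the test (Epcam, Krt8 and Krt18) but 1 without old mouse 3, summed to 1239 to 1557 FPKM across old libraries, against 113 to 263 FPKM across young ones, with the surfactant gene Sftpb at 0 in 5 of the 6. The smooth muscle sum was 715 to 892 FPKM in old libraries. Young mouse 2 had 1216 FPKM of these markers, young mouse 1 had 52.9 and young mouse 3 had 63.2. No gene of that list, led by Acta2 and Tagln, passed, and 3 of 5 did, as higher in old mice, without young mouse 2. Neutrophil markers, led by S100a8 and S100a9, of which 0 of 7 passed but 5, as lower in old mice, without young mouse 1, summed to 322 to 913 FPKM in old libraries, 53.3 FPKM in young mouse 1, and 23756 and 24075 FPKM in young mice 2 and 3. Macrophage markers, led by C1qa and C1qb, of which 0 of 7 passed, summed to 408 to 2105 FPKM across old libraries, against 216 to 2619 FPKM across young ones. The part of these cell types in the differences given here was not tested, and in such bulk libraries fewer cells of a type and less RNA per cell cannot be told apart.

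None of the imprinted growth-control genes passed the test between old and young mice. Of 7 with a mean of at least 1 FPKM, limma called 0 (Benjamini-Hochberg adjusted p below 0.05), where 4.98% of all 10010 tested genes were called, 2.95% as higher in old mice. A log2 fold change of at least 1.5 was found for 2 of 7, Dlk1 and Ndn, as for 5.41% of all tested genes. This cut-off was not among the planned settings and lies just under both values (1.59 each), so the count is descriptive only. At an unadjusted p below 0.05 there were 2 of 7, Dlk1 and Ndn, where 23.1% of all genes reached it. These same 2 genes had old and young values that did not overlap, both higher in old libraries, which 14.5% of tested genes also showed (31.1% in either direction). The 7 log2 fold changes lay above 0, with a median of 0.52, where 49.3% of all tested genes lay above 0 with a median of -0.01. Dlk1 passed the filter only through its old libraries. Without it, 6 of 6 lay above 0 with a median of 0.5. Of these 6, only 1, Ndn, reached an unadjusted limma p below 0.05, and only Ndn had groups that did not overlap. The signs of Igf2, Plagl1, Mest and Cdkn1c turned under at least 1 alternative each.

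**Figure D1:**
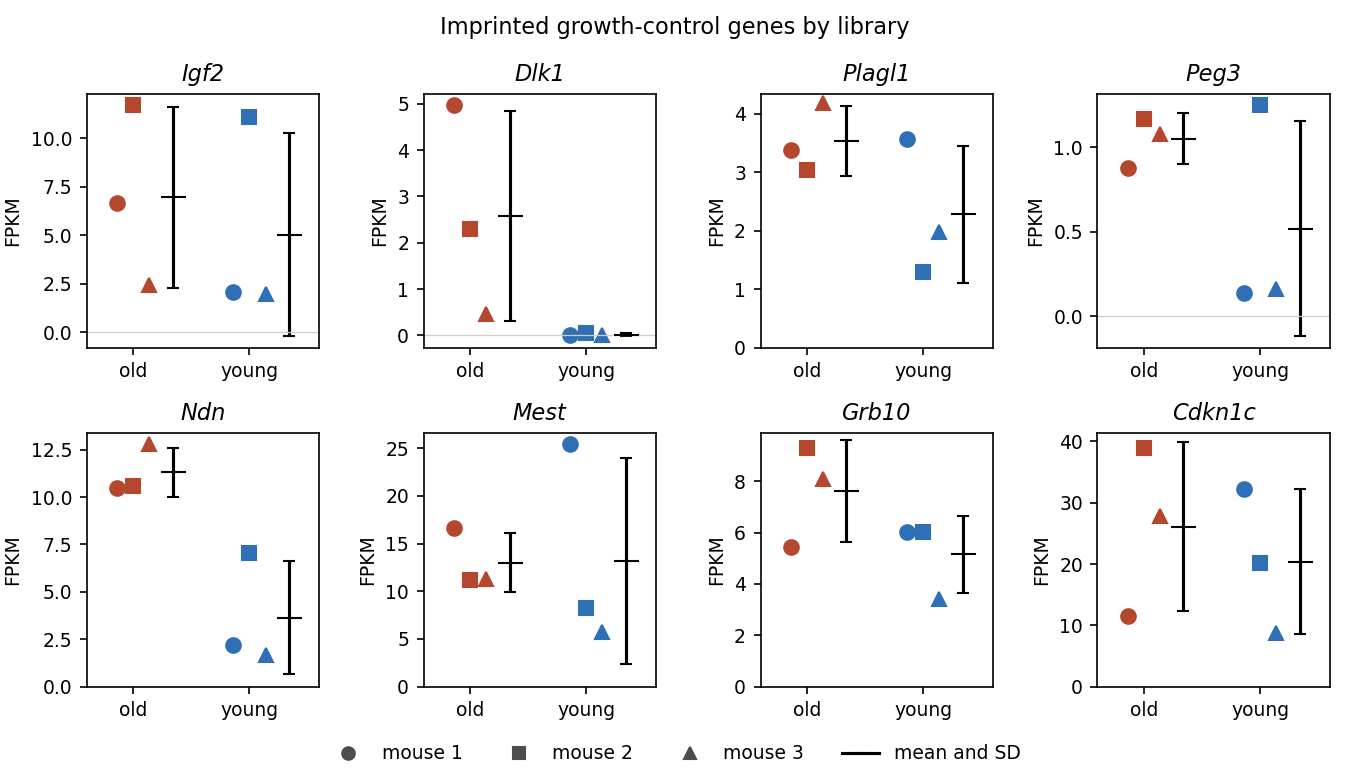
FPKM (linear axis) of the 8 intact genes in each library, old on the left and young on the right of each panel, with the mean and SD of 3 mice beside the points. Dlk1 and Ndn have old points above all young points, and for Igf2, Peg3 and Ndn the highest young point is young mouse 2.

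Igf2 and Dlk1 encode the extracellular signals of the set. Igf2 (ENSMUSG00000048583, chromosome 7, 142650766 to 142666816 in GRCm38) encodes insulin-like growth factor 2, a fetal growth hormone that acts through the IGF1 and insulin receptors. It stood at 6.65, 11.7 and 2.46 FPKM for old mice 1 to 3, and at 2.07, 11.1 and 1.97 FPKM for young mice 1 to 3. Mouse 2 was the highest of each group, the groups overlapped, and the range within a group was 4.78-fold in old and 5.61-fold in young libraries. The difference was small against this spread, with 0.54 ± 0.68 as its log2 fold change (SE, limma adjusted p = 0.664). Fold changes are differences of log2(FPKM + 1), old less young, and are too small for genes of low level. The annotated span of Igf2 overlaps the antisense gene Igf2os, and without strand their fragments cannot be told apart. The span also overlaps Mir483 and the protein-coding gene Gm49394 on its own strand, which strand would not separate.

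Dlk1 (ENSMUSG00000040856, chromosome 12, 109452823 to 109463336) encodes a membrane protein related to the Notch ligand Delta that holds back fat cell differentiation. It stood at 4.97, 2.3 and 0.473 FPKM in old mice 1, 2 and 3, which came from 372, 148 and 48 fragments. In young mice it was at 0, 0.0569 and 0 FPKM, and the 5 fragments of young mouse 2 were the only ones found. A count of 0 allows up to 3 fragments, or 0.0299 FPKM in young mouse 1 and 0.0356 FPKM in young mouse 3, counting error only. Every old library was above every young library, but old mice differed among themselves by 10.5-fold. The log2 fold change was 1.59 ± 0.50 (SE, limma adjusted p = 0.122). It was 1.11 without old mouse 1 and 2.12 without old mouse 3, and the adjusted p ran from 0.0688 to 0.329 over its alternatives. On log2(FPKM + 0.1) the difference was 4.04, with no call either.

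Dlk1 shares an imprinted domain with Meg3, Rtl1, Rian, Mirg and Dio3, all within 816 kb of it. The intact genes of that domain were each low in young libraries. Dio3, an enzyme that inactivates thyroid hormone and is expressed mainly from the father's copy, was at 1.01, 1.56 and 7.55 FPKM for old mice 1 to 3, and at 0, 0 and 0.198 FPKM for young mice 1 to 3. Like Dlk1, Dio3 reached the filter only through its old libraries. Its old and young values did not overlap, as for 14.5% of tested genes in that direction, and it did not pass (log2 fold change 1.73 ± 0.55, SE, limma adjusted p = 0.121). Rian, a maternally expressed noncoding RNA that hosts small nucleolar RNAs, was under the filter at 0.19, 0.463 and 0.785 FPKM for old mice 1 to 3, and at 0.00646, 0.0885 and 0.0499 FPKM for young mice 1 to 3. Its values did not overlap either, which 7.57% of genes under the filter showed in that direction and 8.3% in the other. Rtl1, a retrotransposon-derived gene of the placenta, had at least 15 fragments in old and 3 in young libraries in all, and its groups overlapped. These counts are minima, since its length was inferred as the smallest that gave whole fragments. Its span overlaps several microRNA genes on the other strand, so some fragments may belong to either. Among old mice the order of libraries differed within the domain, since Dlk1 was highest in mouse 1 and lowest in mouse 3 while Rian and Dio3 were highest in mouse 3 and lowest in mouse 1.

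**Figure D2:**
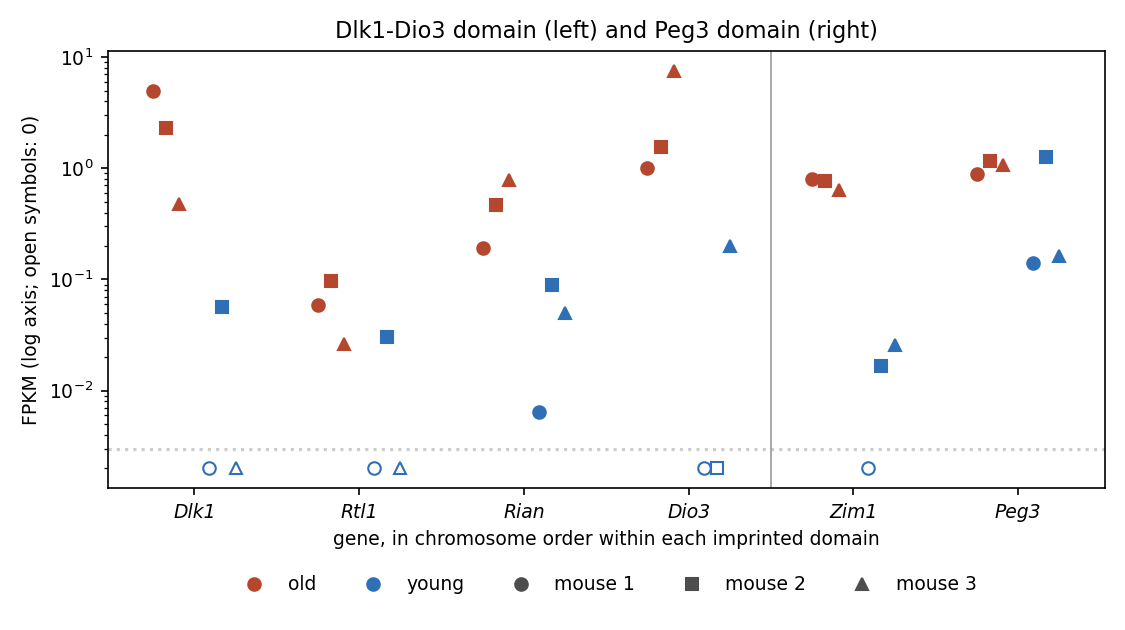
FPKM (log axis, open symbols at the bottom for 0) of the intact genes of the Dlk1-Dio3 domain on the left and the Peg3 domain on the right, with old libraries left of young ones for each gene. Old points lie above young points for Dlk1, Rian, Dio3 and Zim1, while for Rtl1 and Peg3 young mouse 2 lies within or above the old range.

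The promoters of Dlk1, of Peg3 and of Nnat, an imprinted gene outside the set that passed the test, are shown because methylation of CpG dinucleotides is the mark on which imprinting rests. They are the 250 bases before the RefSeq start in GRCm38.p6, read 5′ to 3′ on the gene's strand, with CpG in capitals. Dlk1 spans chr12:109452573-109452822 on the plus strand, Peg3 chr7:6730420-6730669 on the minus strand and Nnat chr2:157559828-157560077 on the plus strand.
Dlk1: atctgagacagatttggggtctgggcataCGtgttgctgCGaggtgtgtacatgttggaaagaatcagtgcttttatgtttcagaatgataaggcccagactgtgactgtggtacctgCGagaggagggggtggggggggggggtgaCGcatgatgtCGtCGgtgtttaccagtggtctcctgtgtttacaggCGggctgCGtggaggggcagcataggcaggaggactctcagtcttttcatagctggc
Peg3: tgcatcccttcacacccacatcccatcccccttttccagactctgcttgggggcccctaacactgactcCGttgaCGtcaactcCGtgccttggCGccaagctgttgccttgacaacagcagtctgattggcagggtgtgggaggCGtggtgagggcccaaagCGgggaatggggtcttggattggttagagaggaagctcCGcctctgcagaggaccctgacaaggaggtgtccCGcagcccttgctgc
Nnat: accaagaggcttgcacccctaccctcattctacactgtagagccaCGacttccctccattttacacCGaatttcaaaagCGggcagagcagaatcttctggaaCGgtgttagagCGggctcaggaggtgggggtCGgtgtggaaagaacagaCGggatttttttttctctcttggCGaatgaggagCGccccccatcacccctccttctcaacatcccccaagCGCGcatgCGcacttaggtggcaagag

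These windows held 8 CpG for Dlk1, 8 for Peg3 and 12 for Nnat, against a median of 6 over the 32851 promoters of the table. The letters GGGGCCCC, a sequence bound by the Plagl1 protein and identical on both strands, occurred 1 time for Peg3 and 0 times for Dlk1 and Nnat, and 0.889% of all promoters held them. A second motif, the YY1 core ATGGCG (in 5.73% of all promoters), was also searched and occurred 0 times in these windows. Windows of further imprinted genes were searched too, and none of them held GGGGCCCC. A link between Plagl1 and Peg3 was not tested. Methylation was not measured here, and whether these windows lie in a control region that carries an imprint was not tested. For Ndn no promoter is shown because the RefSeq start lies 1708 bases inside the GENCODE gene.

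Plagl1 and Peg3 encode zinc finger proteins that bind DNA. Plagl1 (ENSMUSG00000019817, chromosome 10, 13060504 to 13131694), also called Zac1, is a transcription factor that slows cell growth and regulates other imprinted genes in mice. It stood at 3.38, 3.03 and 4.19 FPKM for old mice 1 to 3, and at 3.57, 1.29 and 1.97 FPKM for young mice 1 to 3. Young mouse 1 lay within the old range and the other two young mice below it. The log2 fold change was 0.52 ± 0.31 (SE, limma adjusted p = 0.351), and against young mouse 1 alone it was -0.02.

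Peg3 (ENSMUSG00000002265, chromosome 7, 6703892 to 6730431) is linked to maternal behaviour and growth in mice. It was at 0.88, 1.17 and 1.08 FPKM for old mice 1 to 3, and at 0.14, 1.25 and 0.161 FPKM for young mice 1 to 3. With a mean under 1 FPKM it was not tested. Old mice lay close together, with a 1.33-fold range, while young mouse 2 was the highest of all 6 libraries and the other two young mice were the lowest, at 33 and 32 fragments. Zim1, a maternally expressed zinc finger gene 7.44 kb away, was also under the filter. It stood at 0.803, 0.775 and 0.642 FPKM for old mice 1 to 3, and at 0, 0.0165 and 0.0257 FPKM for young mice 1 to 3. Its groups did not overlap, as for 7.57% of genes under the filter in that direction, and young mouse 2 was not high. With no filter, a fit that called 223 of 19033 genes, Zim1 passed as higher in old mice. Its log2 fold change there was 0.78 ± 0.11 (SE, limma adjusted p = 0.0395).

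Ndn and Mest are further genes active from the father's copy. Ndn (ENSMUSG00000033585, chromosome 7, 62346569 to 62350262) encodes necdin, a MAGE family protein that restrains cell division in neurons and other cells. It was at 10.5, 10.6 and 12.8 FPKM for old mice 1 to 3, and at 2.18, 7.06 and 1.65 FPKM for young mice 1 to 3. The old values lay within 1.21-fold of each other and above every young value, and young mouse 2 was nearest to them. The mean of the old libraries was 11.3 ± 1.27 FPKM, and that of the young libraries 3.63 ± 2.98 FPKM (SD, n = 3 each). The log2 fold change of 1.59 ± 0.43 (SE) missed the threshold (limma adjusted p = 0.0844; over all alternatives 0.0187 to 0.212). Without young mouse 2 it was 2.08 and passed (limma adjusted p = 0.0194). Against young mouse 1 alone it was 1.94 and did not pass (limma adjusted p = 0.0696), in a fit that called 0 of all genes. Filtering low genes on only the 4 libraries of that fit, a choice made after the first outcome was seen, gave a limma adjusted p = 0.0482. Young mouse 2 was also the young library with the highest sum of smooth muscle markers, and the part of those cells was not tested. The span of Ndn overlaps the noncoding gene Gm32061 on the other strand, so some fragments may belong to either.

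Mest (ENSMUSG00000051855, chromosome 6, 30723547 to 30748465) encodes a hydrolase-like protein that marks growing fat and mesoderm. It was at 16.6, 11.2 and 11.3 FPKM for old mice 1 to 3, and at 25.5, 8.26 and 5.73 FPKM for young mice 1 to 3. The highest and the lowest libraries were both young. The log2 fold change was 0.23 ± 0.51 (SE, limma adjusted p = 0.826), and it turned to -0.94 against young mouse 1 alone and to -0.18 without young mouse 3. The span of Mest overlaps Copg2 on the other strand, so some fragments may belong to either.

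Grb10 and Cdkn1c restrain growth. Grb10 (ENSMUSG00000020176, chromosome 11, 11930508 to 12038683) encodes an adaptor that binds the insulin and IGF1 receptors and dampens their signal. It was at 5.43, 9.31 and 8.07 FPKM for old mice 1 to 3, and at 6.02, 6.03 and 3.42 FPKM for young mice 1 to 3. Old mouse 1 lay below 2 of the young mice, and the log2 fold change of 0.49 ± 0.30 did not pass (SE, limma adjusted p = 0.363). Cdkn1c (ENSMUSG00000037664, chromosome 7, 143458339 to 143461050) encodes p57, an inhibitor of cyclin-dependent kinases. It was at 11.5, 39 and 27.8 FPKM for old mice 1 to 3, and at 32.2, 20.2 and 8.69 FPKM for young mice 1 to 3. Each group covered nearly the same range, and the log2 fold change was 0.36 ± 0.58 (SE, limma adjusted p = 0.744), turning to -0.45 against young mouse 1 alone. The span of Cdkn1c overlaps the antisense gene Gm44732, so some fragments may belong to either.

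By mean FPKM, the order in old libraries was Cdkn1c, Mest, Ndn, Grb10, Igf2, Plagl1, Dlk1 and Peg3, where Ndn and Grb10 were the only neighbours whose libraries did not overlap. In young libraries the order was Cdkn1c, Mest, Grb10, Igf2, Ndn, Plagl1, Peg3 and Dlk1, where Plagl1 and Peg3, and Peg3 and Dlk1, did not overlap. Within the young group, mouse 2 was highest for 5 of the 8 genes, mouse 1 for 3 and mouse 3 for 0, and mouse 3 alone was lowest for 5. Dlk1 was at 0 in both young mice 1 and 3.

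**Figure D3:**
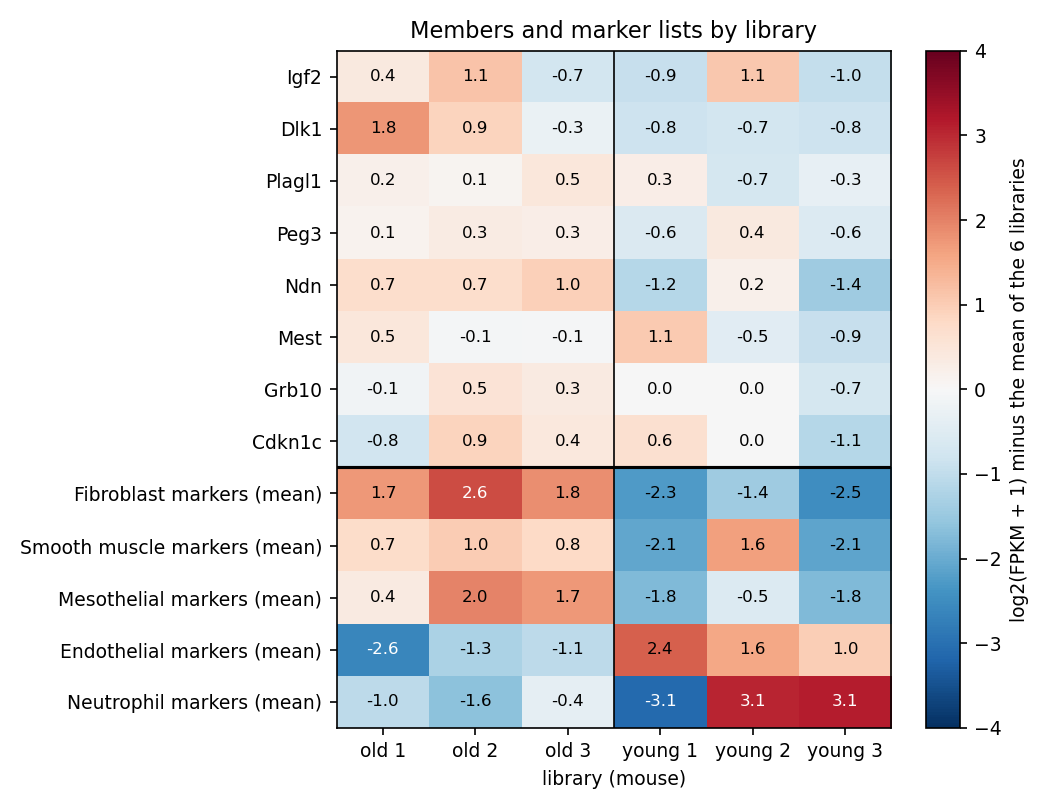
Each cell is log2(FPKM + 1) of a library minus the mean of the 6 libraries, for the 8 genes (above the line) and for the mean of each marker list (below it), with old libraries left of young ones. Fibroblast and mesothelial markers are above their mean in every old library and endothelial markers below it. Young mouse 2 is above the mean for smooth muscle markers, Igf2, Peg3 and Ndn, while young mice 1 and 3 are below it for all 4. Young mouse 2 is also the highest young library for fibroblast and mesothelial markers, though below their mean.

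The genes with the most similar pattern to Igf2 over the 6 libraries, by Pearson's r of log2(FPKM + 1) among 8887 genes (the tested genes without those of predicted or clone names), were Wdr53 (r = 0.971), Cd320 (r = 0.969) and Itgb1bp1 (r = 0.966). For Ndn and Dlk1, picked after their values were seen, these were Cd248 (r = 0.996), Pcsk5 (r = 0.993) and Epn3 (r = 0.992), and Gjb1 (r = 0.997), Jagn1 (r = 0.993) and Wfdc3 (r = 0.992). Cd248, a surface protein of stromal cells and pericytes, was at 21.6, 21.6 and 31.2 FPKM for old mice 1 to 3, and at 1.76, 9.99 and 0.472 FPKM for young mice 1 to 3. In the same order, Pcsk5 was at 3.71, 3.84 and 4.11, and at 0.984, 2.34 and 0.481 FPKM. Epn3 was at 1.92, 1.99 and 2.28, and at 0.125, 1.47 and 0.181 FPKM. Which cells held the Ndn RNA was not tested. The 6 points fall into 2 groups that share age, and these values of r describe these libraries alone.

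Of 45 other imprinted genes listed, 34 were intact and 21 were tested. Of these 3 rose in old mice, 0 fell and 18 did not pass, where 2.95% of all tested genes rose and 2.03% fell. Their median log2 fold change was -0.1, against -0.01 for all tested genes. Nnat (neuronatin, a small membrane protein expressed from the father's copy) was at 32.2, 44.6 and 22.6 FPKM for old mice 1 to 3, and at 0.247, 2.5 and 0.917 FPKM for young mice 1 to 3. It rose by 4.02 ± 0.43 on the log2 scale (SE, limma adjusted p = 0.00745) and was called in 23 of 24 alternatives, the other being young mouse 1 alone, where no gene was called. Its span lies within Blcap on the other strand, which was at 7.04 to 12.2 FPKM across old libraries, against 8.68 to 10.3 FPKM across young ones. Dcn, a collagen-binding proteoglycan imprinted in mouse placenta and a fibroblast product, was at 1085, 2916 and 2057 FPKM for old mice 1 to 3, and at 104, 153 and 76.7 FPKM for young mice 1 to 3. It rose by 4.11 ± 0.44 (SE, limma adjusted p = 0.00745), with the same count of alternatives. Fibroblast markers were higher in the same old libraries, as given above, and their part in the levels of Nnat and Dcn was not tested.

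Slc22a18, a transporter-like gene expressed from the mother's copy 12.7 kb from Cdkn1c, was at 4.01, 3.72 and 5.71 FPKM for old mice 1 to 3, and at 0.897, 1.52 and 1.58 FPKM for young mice 1 to 3. It rose by 1.23 ± 0.26 (SE, limma adjusted p = 0.0458), but the call held in 5 of 23 alternatives and ended without each of the 6 libraries in turn (highest limma adjusted p over the alternatives 0.133). Kcnq1, a potassium channel gene 31.3 kb from Cdkn1c, was at 2, 1.22 and 2.3 FPKM for old mice 1 to 3, and at 11.8, 3.07 and 2.59 FPKM for young mice 1 to 3. It did not pass (log2 fold change -1.03 ± 0.50, SE, limma adjusted p = 0.273). Asb4, a maternally expressed gene of vascular development, had the lowest log2 fold change of the tested imprinted genes at -1.80 ± 0.62, reached the filter only through its young libraries and did not pass (SE, limma adjusted p = 0.147).

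**Figure D4:**
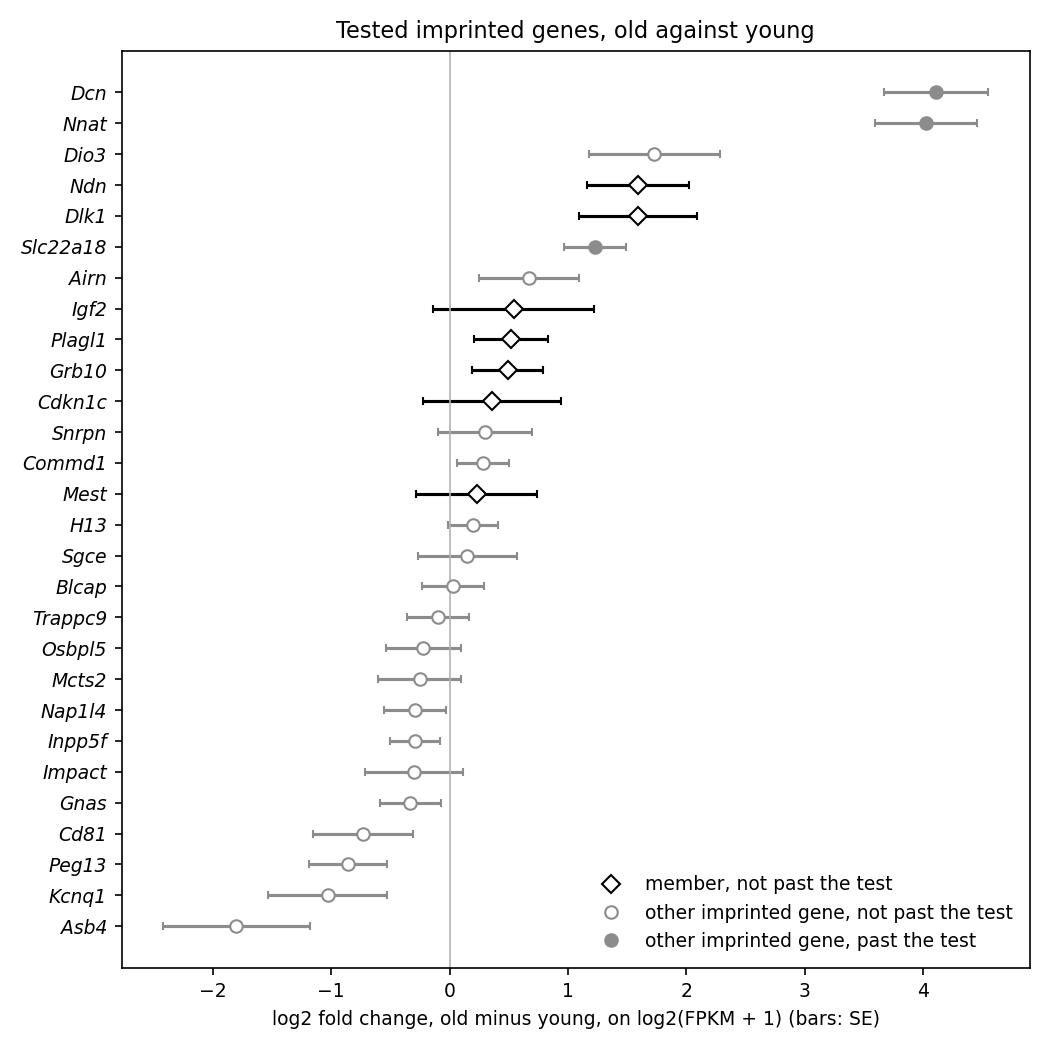
Log2 fold change (old minus young, on log2(FPKM + 1), bars show the SE) of the 7 members and 21 other imprinted genes tested. Filled symbols passed the test, which were Dcn, Nnat and Slc22a18, and all 7 members are open.

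Of the receptors and RNA-binding proteins of Igf2, 5 of 6 were intact and 2 were tested, and 0 passed. The insulin receptor gene Insr was at 1.56, 1.82 and 2.08 FPKM for old mice 1 to 3, and at 6.76, 4.54 and 15.6 FPKM for young mice 1 to 3. The old values of Insr lay below all young values, as 16.7% of tested genes did, and it did not pass (log2 fold change -1.67 ± 0.41, SE, limma adjusted p = 0.0679). Without young mouse 2 it passed, at -2.01 (limma adjusted p = 0.0492). Igf1r was at 0.993 to 1.67 FPKM across old libraries, against 1.69 to 2.92 FPKM across young ones, also without overlap, and did not pass (log2 fold change -0.48 ± 0.26, SE, limma adjusted p = 0.323). The fetal Igf2 mRNA-binding proteins Igf2bp1, Igf2bp2 and Igf2bp3 were all under the filter, and the highest value among them was 0.69 FPKM, for Igf2bp2 in old mouse 2.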

How the data were processed

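The authors deposited 1 table of FPKM values per library. The tools CASAVA 1.7 and Bowtie 0.12.2 and the genome build mm8 are named per the submitters' processing notes, but not for which step. The counter, annotation and strandedness: not given in the sources used here. Exon lengths in GENCODE M21 (GRCm38) gave whole fragments for 78.85% of kept genes above 0, and for all 8 members, so its names and coordinates are used.

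The tables were damaged as received, with altered characters and lost decimal points after the first 2884 of 24720 rows. Rows were kept with a known, unique identifier, 6 readable values under 1000000 FPKM and 1 gene length that gave whole fragments in every library (tolerance 1e-06 fragments plus a relative 3e-13), which left 19037 genes. No value was repaired. Of the genes listed, those not kept are not analysed here. The 18 unnamed columns of each table were not used. The implied totals are not whole numbers, so they may hold a scaling factor.

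Rows sharing a symbol were summed, and 10010 genes with a mean of at least 1 FPKM entered limma 3.58.1 (R 4.3.3) as log2(FPKM + 1) (variance trend, no covariates, two-sided, Benjamini-Hochberg adjusted p below 0.05). The fit was tested on simulated data with known changes. Fits on fewer libraries kept these 10010 genes. Filtering on the libraries fitted, with the 7 tested members kept in, was added after seeing the data. The labels name separate mice, so p-values measure the spread between mice. Old and young mice share only numbers, not pairs. All members are named. Of the other lists, the genes past the test are named or, where a list had none, the 2 of highest mean FPKM. Dlk1-Dio3 and Peg3 domain genes, Blcap, Kcnq1, Asb4, Sftpb, Cd248, Pcsk5, Epn3, the Igf2bp genes, Dnmt1, Uhrf1, Tet3 and Atrx were picked after their values were seen. The members and lists were chosen with earlier results of these data known. Promoter sequences come from RefSeq (GRCm38.p6), which held 8 of the 10 members, not H19 or Cdkn1c. Coordinates of genes are those of GENCODE M21.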

Additional observations from a re-analysis of the deposited data

How the results depend on the processing

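The count of imprinted growth-control genes called was 0 in 21 of 24 alternatives and 1, always Ndn, in the others. These were leaving out young mouse 2, under either filter, and young mouse 1 alone with genes filtered on the libraries fitted. Over the fits that left out 1 library the count was 0 to 1. The count over all tested genes was 498, and 84 to 403 over the fits that left out 1 library. It was 323 with log2(FPKM + 0.01), 223 with no filter, 292 with a mean of at least 5 FPKM, 126 with the mouse number as a replicate block and 0 against young mouse 1 alone, where the lone young library is assumed to vary like the old ones. For fits on fewer libraries, filtering on the libraries fitted was chosen after seeing the data. It gave counts over all genes of 192, 134 and 84 without old mouse 1, 2 or 3 and of 262, 395 and 196 without young mouse 1, 2 or 3. Against young mouse 1 alone it turned 0 calls into 413 and made Ndn pass, so that call rests on the filter. Same-numbered libraries did not deviate together (r = -0.094, -0.003 and 0.01), so the numbers are not taken as pairs, and the block called 0 of the members. Of 166 values of single members under alternatives, 150 kept their direction and their side of the threshold, 3 became calls (all Ndn) and 13 turned. Without 1 library Cdkn1c ran from -0.13 to 0.84 (0, just below it, without old mouse 2) and Mest from -0.18 to 0.81, both lowest without young mouse 3. Against young mouse 1 alone Cdkn1c was at -0.45, Mest at -0.94 and Plagl1 at -0.02 under either filter, and Igf2 was at -0.01 with array weights. The cause was not tested. Dlk1 and Plagl1 have no value with the filter at 5 FPKM. For Dlk1, the young values rest on 5 fragments, so how low they are is known only roughly. The young libraries were not the shallower ones. Their implied depth was 14903398 to 17723926 fragments, against 13220833 and 11381122 for old mice 1 and 2 and 17931463 for old mouse 3.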

Other observations

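Genes that maintain imprints and DNA methylation did not pass the test between old and young libraries. Of 15 listed, 12 were intact and 10 tested, and limma called 0 of them (4.98% of all tested genes), with 0 also at an unadjusted p below 0.05 (23.1% of all tested genes). Their median log2 fold change was -0.03, against -0.01 for all tested genes. Dnmt1, the methyltransferase that copies methylation at replication, was at 11.3, 2.91 and 4.75 FPKM for old mice 1 to 3, and at 6.36, 4.43 and 5.06 FPKM for young mice 1 to 3. Its partner Uhrf1 was at 15, 1.49 and 4.02 FPKM for old mice 1 to 3, and at 3.52, 2.24 and 4.16 FPKM for young mice 1 to 3. Both were highest in old mouse 1. Ctcf, which binds the control region between H19 and Igf2, was at 15.1 to 24.2 FPKM across old libraries, against 19 to 22.3 FPKM across young ones, and Trim28, a corepressor that guards imprints, was at 10.2 to 25.4 FPKM across old libraries, against 10.3 to 11.6 FPKM across young ones. Old values lay below all young values for 2 of the 10 genes, as for 16.7% of all tested genes. These were Tet3, an enzyme that oxidises methylated cytosine, at 1.36 to 1.89 FPKM across old libraries, against 2.42 to 2.95 FPKM across young ones (limma adjusted p = 0.28), and Atrx, a chromatin remodeller, at 7.21 to 10.9 FPKM across old libraries, against 11.5 to 16.1 FPKM across young ones (limma adjusted p = 0.223). Of the relatives of Cdkn1c, Cdkn1a was at 117 to 211 FPKM across old libraries, against 131 to 391 FPKM across young ones and Cdkn1b at 4.12 to 7.68 and 5.37 to 11.7 FPKM. Neither passed (limma adjusted p = 0.42 and 0.682).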
